A study of Homo sapiens with 4 samples.

Results

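TRIM6, TRIM5, TRIM22, TRIM34 and TRIM21 are tripartite motif genes that lie on the same arm of chromosome 11, and their probe sets were followed on 4 arrays. The cells were UM-UC-3, an established line from a human bladder cancer. The members were the probe sets that the platform annotation gives to exactly 1 of these 5 genes. There were 5 such probe sets for 4 of the genes, 2 of them for TRIM5 and 1 each for TRIM6, TRIM22 and TRIM21, of 41091 single-gene probe sets for 19775 genes in all. TRIM34 had none, since both of its probe sets are also given to the readthrough gene TRIM6-TRIM34. Those were kept apart and are described as shared. TRIM6 was singled out because it is among the genes with the largest rise in these arrays, 9th of 12123 genes tested, so its difference between the cell lines is given here as a description without a test, and so are those of the other members.

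The cells carried either GFP fused to RhoGDI2 or GFP alone, the control, with 2 arrays a group. RhoGDI2 is the product of ARHGDIB, and the study asked which genes it regulates. Both lines were made by stable transfection of UM-UC-3 and were sorted by fluorescence, and RNA was taken in log phase growth. Preparations A and B were made at different times, and each holds 1 array of each line. The sources used here do not give whether either line is a clone or a pool, so a difference between the 2 lines as such and an effect of RhoGDI2 cannot be told apart. For the GFP-RhoGDI2 samples, 1 label describes the control transfection, while the title, source, growth protocol and characteristics name GFP-RhoGDI2.

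TRIM proteins share an N-terminal RING finger, B-box and coiled coil, and most act as ubiquitin ligases. In the 5 proteins here, the coiled coil is followed directly by a PRY/SPRY domain, which binds the target. Several genes of other domain orders end in a domain of this kind too. Several genes of the members' domain order are induced by interferon and act in innate immunity: TRIM5 and TRIM34 proteins bind retroviral capsids, TRIM22 restricts several viruses, TRIM21 is a cytosolic antibody receptor, and TRIM6 makes unanchored ubiquitin chains that take part in the response to type I interferon.

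The order of the genes along the chromosome in the RefSeq annotation is TRIM21, TRIM5, TRIM6, TRIM6-TRIM34, TRIM34 and TRIM22. The span of TRIM5 encloses those of TRIM6, TRIM6-TRIM34 and TRIM34, and TRIM5 is read on the opposite strand. TRIM21 lies more than 1 Mb away. RefSeq promoter windows of 250 bases before to 50 after a start were at hand for 4 of the 5 genes, with 2 windows for TRIM34. The 250 bases before the starts of TRIM6, TRIM5 and TRIM34 are shown because these genes sit within one another, and their values in the cells differed. In TRIM5 and TRIM34 the capitals mark the core of the interferon-stimulated response element, which was searched on either strand as GAAA, any 2 bases and GAAA, and in TRIM6 they mark the unit CCTTCCCC.
TRIM6, GRCh38.p14, plus strand, chr11:5596387-5596636: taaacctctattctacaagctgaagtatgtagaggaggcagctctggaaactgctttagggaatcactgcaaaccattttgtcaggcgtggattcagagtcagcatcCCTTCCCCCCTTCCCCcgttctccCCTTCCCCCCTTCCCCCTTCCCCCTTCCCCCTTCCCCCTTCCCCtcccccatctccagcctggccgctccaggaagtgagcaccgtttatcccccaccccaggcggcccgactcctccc
TRIM5, GRCh38.p14, minus strand, chr11:5685075-5685324: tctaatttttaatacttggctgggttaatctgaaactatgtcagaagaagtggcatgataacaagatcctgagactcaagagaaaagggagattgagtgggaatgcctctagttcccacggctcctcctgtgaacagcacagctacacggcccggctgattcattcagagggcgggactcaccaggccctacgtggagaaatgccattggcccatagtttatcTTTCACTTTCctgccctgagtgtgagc
TRIM34, GRCh38.p14, plus strand, chr11:5624751-5625000: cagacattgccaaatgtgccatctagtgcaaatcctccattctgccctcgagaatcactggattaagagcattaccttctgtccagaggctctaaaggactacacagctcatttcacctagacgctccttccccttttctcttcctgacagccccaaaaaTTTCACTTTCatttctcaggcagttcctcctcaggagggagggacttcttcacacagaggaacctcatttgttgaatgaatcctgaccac

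The TRIM6 window held 0 matches to this core. TRIM5 held 1, at -27 to -18 from the start, and the TRIM34 window printed held 1, at -90 to -81, while the other TRIM34 window held 0. TRIM21 held 2 overlapping matches just after its start, at 18 to 27 and 24 to 33, here in capitals within 30 bases.
TRIM21, GRCh38.p14, minus strand, chr11:4393663-4393692: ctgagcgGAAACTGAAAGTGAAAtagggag
Of 35116 RefSeq windows of 300 bases, 3.57% held at least 1 match to this core. The other interferon element searched, the gamma-activated site TTCNNNGAA, is in 7.66% of the windows and in 0 of the 5 windows of these genes. CCTTCCCC occurs 8 times before the start of TRIM6, between -143 and -76. It occurs 1 time in the printed TRIM34 window, at -124 to -117. This unit, also searched on either strand, is in 5.84% of the windows. It is held at least 8 times by 2 windows, those of TRIM6 and of TRIM6-TRIM34. The unit was chosen after the TRIM6 sequence was seen, so that this rarity follows in part from the choice. A match is only a run of letters, and the presence of a factor was not measured.

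TRIM6 was high in the GFP-RhoGDI2 line and near the low end of the scale in the GFP line. All values are log2 expression after RMA, the authors' normalization and summary per probe set. TRIM6 read 7.56 and 7.62 in GFP-RhoGDI2 preparations A and B, against 3.37 and 4.07 in GFP preparations A and B. The groups do not overlap, which holds for 54.5% of all genes tested, and TRIM6 was chosen on this contrast. Its lowest GFP-RhoGDI2 array is far above its highest GFP array. The mean was 7.59 ± 0.05 in GFP-RhoGDI2 cells and 3.72 ± 0.50 in GFP cells (SD, n = 2 each), a difference of 3.87 or 14.6-fold. The difference was 4.19 in preparation A and 3.55 in preparation B. Most of the distance between the preparations comes from the GFP line, where B exceeded A by 0.70, against 0.06 in the GFP-RhoGDI2 line.

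The GFP values of TRIM6 lie below 4.64, the median of all probe set means, which was used as a filter on low values. No detection calls were used, so these values are not shown to be above background, and the size of the difference is uncertain at its lower end. With values below the filter level set to that level, the difference was 2.95. TRIM6 passed the filter only through the GFP-RhoGDI2 arrays. Of the 5 member probe sets, 3 passed, those of TRIM6 and TRIM21 and the brighter of TRIM5. Of all genes tested, limma called 8.17% at an adjusted p under 0.05, 4.83% higher and 3.35% lower. TRIM6 was chosen on this contrast, so no call of a member is read as a result.

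TRIM5, whose gene encloses TRIM6, was well measured and did not follow it. Its brighter probe set read 8.05 and 7.93 in GFP-RhoGDI2 preparations A and B, against 7.94 and 8.03 in GFP preparations A and B. The groups overlap fully, and the difference of 0.0046 is smaller than the SD of 0.08 in GFP-RhoGDI2 cells and 0.06 in GFP cells (n = 2 each). The other TRIM5 probe set lay below the filter on each array, at 3.78 and 3.50 in GFP-RhoGDI2 cells and 3.65 and 3.63 in GFP cells. Both TRIM5 probe sets belong to the class with identifiers ending in _s_at, which can match several transcripts.

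TRIM22, the neighbour on the far side, stayed at the low end of the scale in both lines. It read 2.94 and 2.95 in GFP-RhoGDI2 preparations A and B, against 3.01 and 2.82 in GFP preparations A and B. The groups overlap, and all 4 values are below the filter level, so a fall or a small change could not be seen at this signal. No rise like that of TRIM6 was seen in this probe set.

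The probe sets shared by TRIM34 and the readthrough gene were low too. The first read 3.57 and 3.29 in GFP-RhoGDI2 preparations A and B, against 3.24 and 3.66 in GFP preparations A and B. The second read 3.72 and 4.02 in GFP-RhoGDI2 preparations A and B, against 3.88 and 3.86 in GFP preparations A and B. In both, the groups overlap, the preparations differ in opposite directions and every value is below the filter level. The differences of the means were -0.02 and 0.0021. Which probe set of the locus would read the joined transcript best was not analysed here.

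TRIM21, the most distant of the 5 genes, was slightly lower in the GFP-RhoGDI2 line. It read 5.84 and 5.83 in GFP-RhoGDI2 preparations A and B, against 6.33 and 5.99 in GFP preparations A and B. The groups do not overlap, which holds for 54.5% of all genes tested. The difference was -0.33, with -0.49 in preparation A and -0.16 in preparation B, and the GFP arrays alone differ by 0.33.

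**Figure D1:**
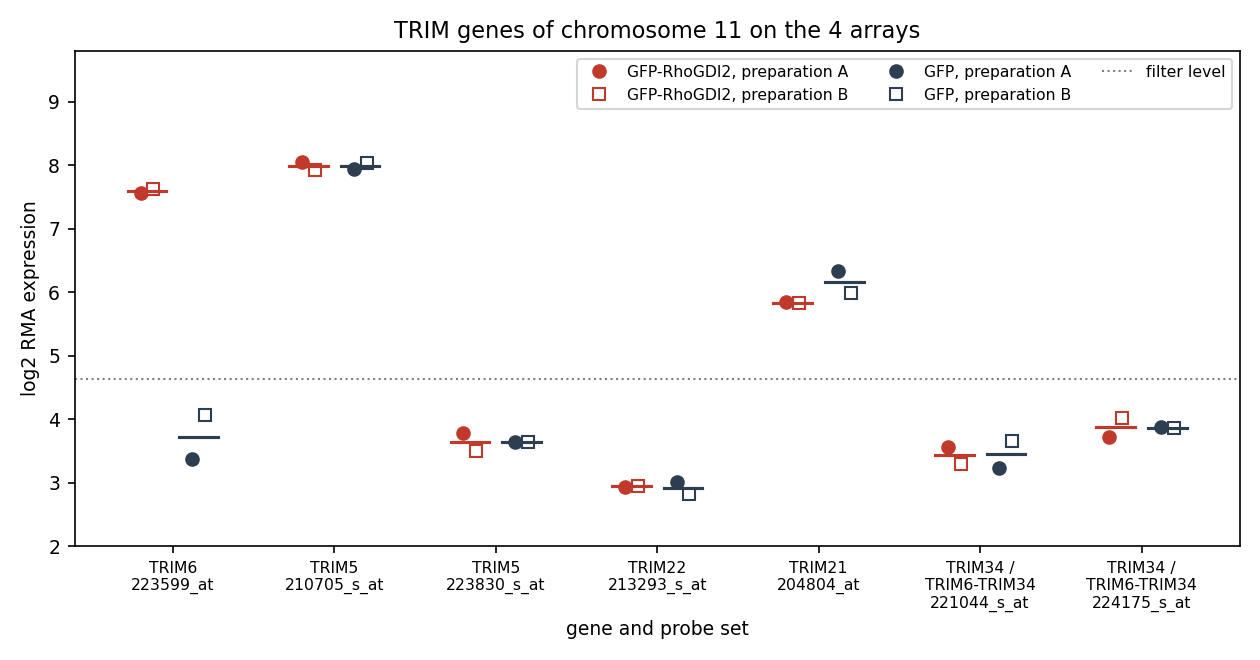
Log2 RMA expression (vertical axis) of the member probe sets and of the probe sets shared by TRIM34 and TRIM6-TRIM34 (horizontal axis) in GFP-RhoGDI2 (red) and GFP (dark) cells; filled circles are preparation A, open squares preparation B, short lines group means of 2 arrays, and the dotted line the filter level of 4.64. TRIM6 alone stands on different sides of the filter level, at 7.56 and 7.62 in GFP-RhoGDI2 cells against 3.37 and 4.07 in GFP cells.

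The change between preparations B and A is a measure that did not enter the choice of the members. For TRIM6 no test of it is given, since most of its change comes from the GFP arrays, which are below the filter level. Taken over both lines in the same limma fit, TRIM21 differed by -0.17 (SE 0.115, adjusted p = 0.592) and the brighter TRIM5 probe set by -0.01 (SE 0.101, adjusted p = 0.967). Of all genes tested, limma called 0 between the preparations (0% of 12123), with 1217 at an unadjusted p under 0.05. With a variance trend on intensity it called 190.

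Of the tested genes around TRIM6, 1 rose. RefSeq places 135 further genes within 1 Mb of its start, olfactory receptor and globin genes among them. Of these, 33 had a single-gene probe set and 10 passed the filter. Among the 10, 1 rose and 0 fell (10% called, against 8.17% of all genes tested), with a median difference of -0.0034, against -0.01 over all genes tested. The gene that rose was CAVIN3, which encodes a caveolar coat protein that binds protein kinase C delta. It read 8.79 and 8.55 in GFP-RhoGDI2 preparations A and B, against 7.62 and 7.65 in GFP preparations A and B. Its difference was 1.03 (SE 0.109, adjusted p = 0.00785), a 2.05-fold rise.

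Between TRIM6 and CAVIN3 lies FHIP1B, the nearest tested gene on that side, whose product takes part in vesicle transport by dynein. FHIP1B averaged 6.71 ± 0.04 in GFP-RhoGDI2 cells and 6.65 ± 0.02 in GFP cells (SD, n = 2 each; adjusted p = 0.742). SMPD1, the acid sphingomyelinase gene next to CAVIN3, differed by -0.20 (adjusted p = 0.244). On the other side, only HBB, the beta-globin gene, and TRIM68, a further ubiquitin ligase gene, were tested. HBB differed by -0.09 (adjusted p = 0.614) and TRIM68 by -0.10 (adjusted p = 0.574). With the mean of all its probe sets HBB differed by 0.04 and was not called either. The 23 measured genes below the filter differed by -0.32 (UBQLNL) to 0.30 (HBD), as the plot of the genes around TRIM6 shows.

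**Figure D2:**
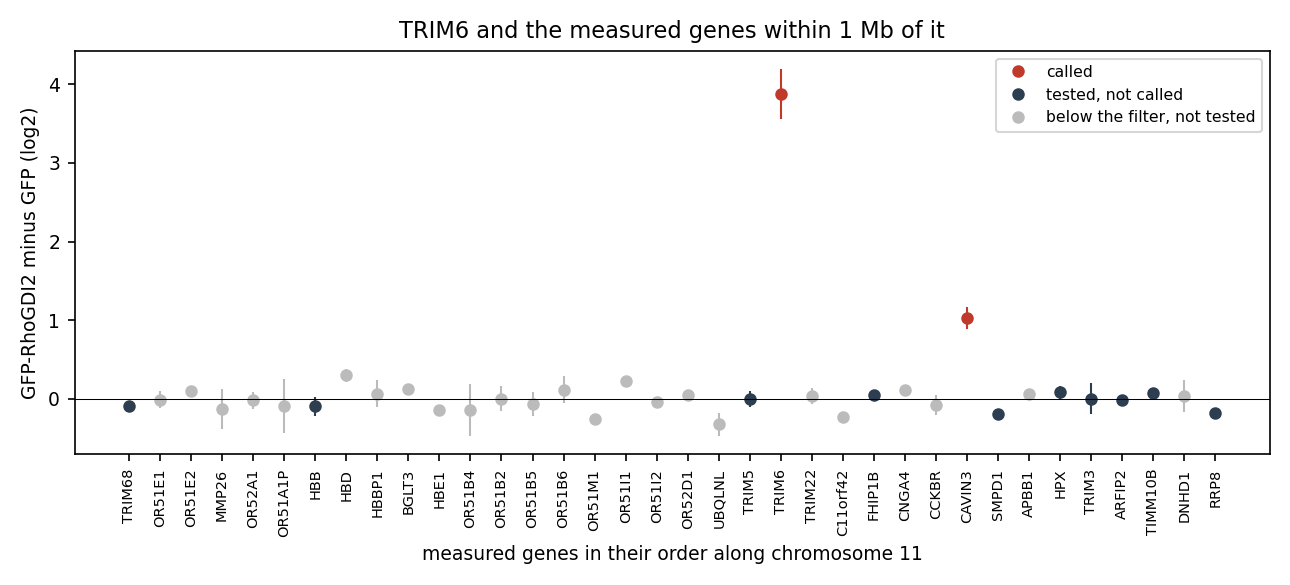
GFP-RhoGDI2 minus GFP (log2, vertical axis) of TRIM6, TRIM5, TRIM22 and the measured genes within 1 Mb, in chromosomal order (horizontal axis, not to distance), each by its brightest single-gene probe set; points are the mean difference and lines join preparations A and B. TRIM6 at 3.87 and CAVIN3 at 1.03 stand above the others, which lie between -0.32 and 0.30. The colour of TRIM6 is not read as a test, since TRIM6 was chosen on this contrast.

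In the wider TRIM family, MID1 and TRIM9 were called higher and TRIM47, TRIM14 and TRIM36 lower. Of 27 listed genes of the members' domain order (RING, B-box, coiled coil, PRY/SPRY), 20 had a single-gene probe set and 15 were tested; 0 rose and 1 fell (6.67% called, against 8.17% of all genes tested), with a median difference of -0.19. The one that fell was TRIM47, another ubiquitin ligase gene. TRIM47 read 5.12 and 5.13 in GFP-RhoGDI2 preparations A and B, against 5.67 and 5.59 in GFP preparations A and B (difference -0.51, adjusted p = 0.0358). TRIM47 stayed called in the limma fit of all 4 arrays without the preparation block (adjusted p = 0.0436). Its call was lost without any 1 of the 4 arrays, in fits that also had no block for preparation. The differences within this domain order ran from -0.51 for TRIM47 to 0.36 for TRIM7, which was not called (adjusted p = 0.12). Genes of this order named for their roles, not by rule, were not called either: TRIM25, which ubiquitinates the RNA sensor RIG-I, differed by -0.27 (adjusted p = 0.136), TRIM38 by -0.34 (adjusted p = 0.0852) and TRIM27 by -0.33 (adjusted p = 0.0902).

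Of 34 TRIM genes of other domain orders, 33 were measured and 26 tested; 2 rose and 2 fell (15.4% called, against 8.17% of all genes tested), with a median of -0.03. The 4 called genes are not without the members' end domain: MID1, TRIM9 and TRIM36 have a RING finger and end in a SPRY-type domain after a fibronectin repeat, and TRIM14 has a PRY/SPRY domain but no RING finger. MID1, a ubiquitin ligase gene of microtubules, had the largest change among the tested TRIM genes after TRIM6. MID1 read 9.19 and 9.36 in GFP-RhoGDI2 preparations A and B, against 7.76 and 8.07 in GFP preparations A and B. The groups lie more than 1 log2 unit apart, and the difference was 1.36 (SE 0.0968, adjusted p = 0.00221), a 2.57-fold rise. With the mean of all its probe sets MID1 differed by 1.01. TRIM9, a ligase gene known from neurons, rose by 0.55 (adjusted p = 0.034), a call that was lost without the preparation block (adjusted p = 0.152). With the mean of all its probe sets TRIM9 differed by 0.87.

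TRIM14, an adaptor of antiviral signalling, fell by 0.63 (adjusted p = 0.0193), and with the mean of all its probe sets it differed by -0.35 (adjusted p = 0.0117). TRIM14 stayed called in the limma fit of all 4 arrays without the block (adjusted p = 0.0211). TRIM36, a relative of MID1, fell by 0.51 (adjusted p = 0.0338). The TRIM36 call was lost without the block (adjusted p = 0.0679), and with the mean of all its probe sets its difference was -0.05 (adjusted p = 0.725). Leaving out 1 array, in fits that also had no block, took away the calls of TRIM9, TRIM14 and TRIM36 in each of the 4 cases. These fits leave 1 array in a group, so the losses cannot be ascribed to the array alone. In them TRIM9 differed by 0.30 to 0.79, TRIM14 by -0.66 to -0.60, TRIM36 by -0.60 to -0.41 and MID1 by 1.20 to 1.52.

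**Figure D3:**
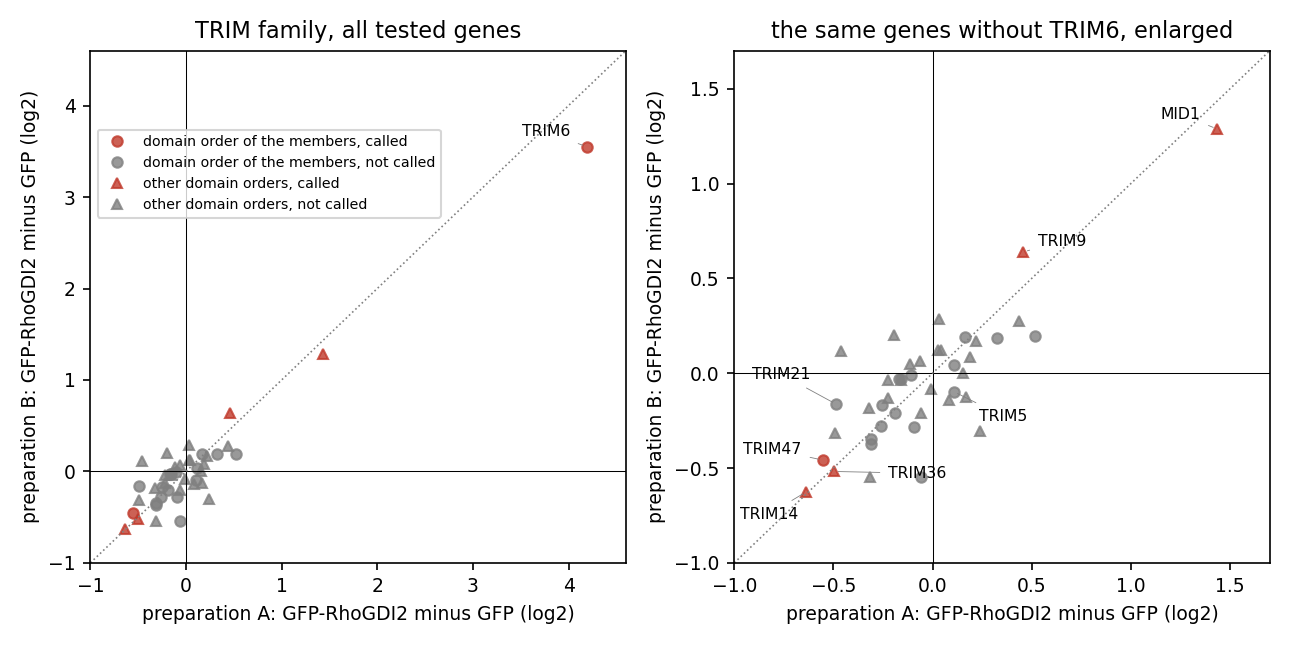
GFP-RhoGDI2 minus GFP (log2) in preparation A (horizontal axis) and preparation B (vertical axis) of all tested TRIM family genes, with the right panel enlarged; circles are genes of the members' domain order, triangles those of other orders, red is called at adjusted p under 0.05, and the dotted line marks equal differences. TRIM6 lies at 4.19 and 3.55 and MID1 at 1.43 and 1.29, while the mean differences of the other genes run from -0.63 (TRIM14) to 0.55 (TRIM9). The colour of TRIM6 is not read as a test, since TRIM6 was chosen on this contrast.

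The genes that TRIM proteins work with showed 1 change among 18 tested of 27 listed, 0 higher and 1 lower. This is 5.56% called, against 8.17% of all genes tested, with a median of -0.05. TBK1, a kinase that activates interferon regulatory factors, fell by 0.43 (adjusted p = 0.0493). TBK1 read 9.14 and 9.13 in GFP-RhoGDI2 preparations A and B, against 9.60 and 9.55 in GFP preparations A and B. That call sits at the threshold and was lost without the block (adjusted p = 0.0647). It was also lost without any 1 array, in fits that had no block either. The partners of TRIM6 named for their roles did not pass the test: UBE2K, the ubiquitin-conjugating enzyme it works with, differed by -0.22 (adjusted p = 0.212), and IKBKE, the kinase its chains activate, by -0.11 (adjusted p = 0.542).

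Of 55 interferon-stimulated genes listed, 53 were measured and 35 tested. Of these, 2 rose and 4 fell (17.1% called, against 8.17% of all genes tested). The median was -0.14, against -0.01 over all genes tested, and the list was not tested as a set. The split was 0 higher and 5 lower above the upper quartile of means, and 2 higher and 10 lower both with probe sets averaged per gene and with the intensity trend. IRF9, a subunit of the interferon-activated transcription factor complex, rose by 0.72, and SAMD9, an antiviral factor, by 0.51, and both calls were lost without the block (adjusted p = 0.0604 and 0.0889). IFI44 fell by 0.81 and SP110, a nuclear body gene, by 0.66; with the mean of its probe sets SP110 differed by -0.38. DDX60 and HERC6, named to complete the count, fell by 0.49 (adjusted p = 0.0378) and 0.46 (adjusted p = 0.0491), and neither was called without the block or without any 1 array. Fits with 1 array left out had no block either. Without a GFP-RhoGDI2 array, A or B, neither IFI44 nor SP110 was called, nor was SP110 without GFP B. IRF9 and SAMD9 lost their calls without any 1 array.

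Of 15 interferon ligand, receptor and kinase genes, 9 were tested, with a median of 0.13. Among them 0 were called by limma (0%, against 8.17% of all genes tested). At an unadjusted p under 0.05, 1 was found, JAK1, a kinase of interferon receptors. JAK1 differed by 0.49 (adjusted p = 0.0791), and was called with a variance trend on intensity (adjusted p = 9.99e-05). TYK2, its partner at the type I receptor, differed by 0.23 (adjusted p = 0.205).

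**Figure D4:**
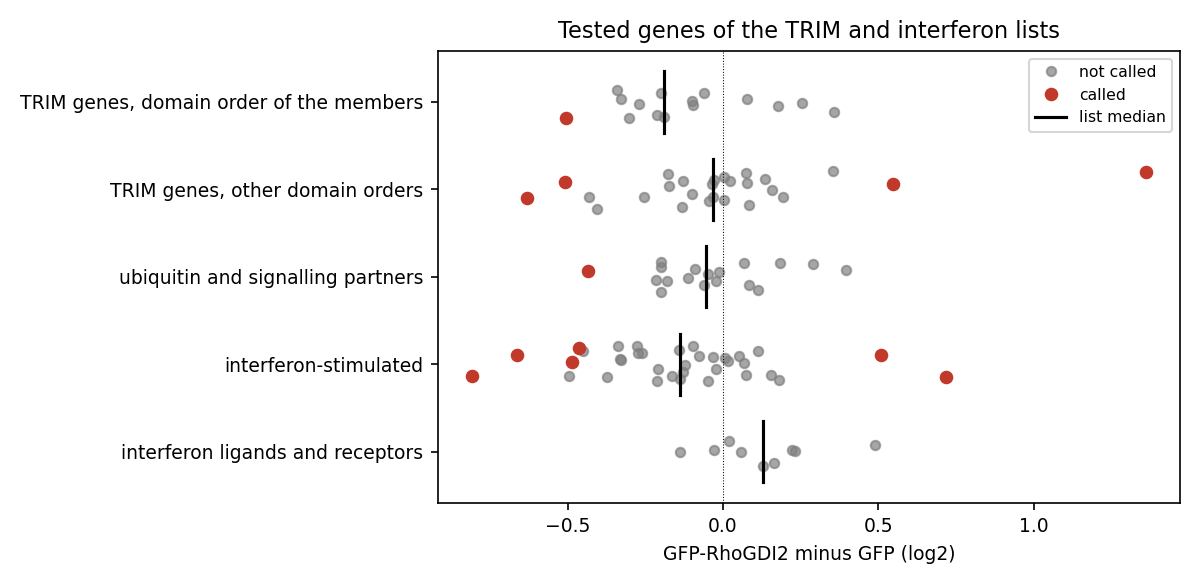
GFP-RhoGDI2 minus GFP (log2, horizontal axis) of each tested gene of 5 gene lists (rows; the vertical scatter within a row has no meaning); red points are called at adjusted p under 0.05 and black lines are list medians. TRIM6 and the other members are left out; MID1 at 1.36 lies farthest from 0, and the medians lie between -0.19 and 0.13.

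The genes whose pattern over the 4 arrays was most like that of TRIM6 were NEFL, SLC1A1, STC1, RNF182 and DNER. Likeness is the root mean square difference between log2 values after each gene was centred on its own mean; with 4 arrays it mostly picks genes with a rise of the same size. The value was 0.16 for NEFL, a neurofilament gene, 0.166 for SLC1A1, a glutamate transporter gene, and 0.176 for STC1, which encodes a secreted glycoprotein. It was 0.21 for RNF182, another ubiquitin ligase gene, and 0.218 for DNER, a Notch ligand gene. NEFL read 7.94 and 7.78 in GFP-RhoGDI2 preparations A and B, against 3.58 and 4.003 in GFP preparations A and B. Like TRIM6, NEFL was below the filter level in both GFP arrays and higher there in B. The same held for SLC1A1, at 3.03 and 3.37 in GFP preparations A and B. With the mean of all probe sets of a gene, NEFL differed by 2.65 and SLC1A1 by 2.71, against 4.07 for each with the brightest.

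The arrays were at a common level, with medians of 4.62 to 4.65. By its brightest probe set the introduced gene was high as labelled, with ARHGDIB at 11.8 ± 0.25 in GFP-RhoGDI2 cells and 6.39 ± 0.16 in GFP cells (SD, n = 2 each). With the mean of all its probe sets ARHGDIB differed by 2.10, against 5.37 with the brightest. Of 14 measured markers of bladder epithelium, 5 were at or above the filter level (GATA3, PPARG, KRT7, KRT8 and KRT18), while the uroplakins, EPCAM, CDH1, KRT5, KRT19 and KRT20 were below it. Of the 5, PPARG rose by 1.27 and KRT8 and KRT18 fell by 1.23 and 0.59 (60% called, against 8.17% of all genes tested). GATA3 and KRT7 differed by -0.20 and -0.15 and were not called. Of 6 mesenchymal markers 5 were above the filter level, and SNAI2 and CDH2 rose by 2.03 and 0.68 (40% called). FN1, ZEB1 and VIM differed by 0.34, 0.19 and 0.18 and were not called. Of 9 measured blood cell markers 8 were below the filter level, PTPRC among them, and HBB was above it at a mean of 5.49. The summed log2 levels of the 9 were 36.7 and 35.3 in GFP-RhoGDI2 cells and 36.2 and 36.2 in GFP cells. The part of the epithelial and mesenchymal markers in the TRIM differences was not tested.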

How the data were processed

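Expression was measured on 4 Affymetrix HG-U133 Plus 2.0 arrays, 2 of GFP-RhoGDI2 and 2 of GFP cells. The deposited log2 values per probe set come from RMA, according to the submitters' processing notes, and were used as the authors deposited them. The sources used here do not name the software or its version. The number of arrays limits the precision, since arrays have no read depth. Of 54675 probe sets, 62 controls were left out. The platform annotation named 1 gene for 41091 of the rest, several for 1801 and none for 11721; gene IDs of 41037 matched RefSeq (GRCh38.p14) and took its symbols. Probe sets whose mean was at or above the median of all means, 4.64, were tested, 27307 probe sets and 12123 genes, a gene being represented by its brightest.

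Tests were made with limma 3.58.1 (R 4.3.3), blocking on preparation. p-values were adjusted by Benjamini-Hochberg over the 27307 probe sets, and genes under 0.05 were called. The fit has 1 residual degree of freedom per probe set, and the moderation adds 4.71, with a prior SD of 0.101, so small SEs rest mainly on the prior. The labels state that preparations pair the samples; B minus A differences of the 2 lines correlated at r = 0.264 across probe sets. Apart from this prior, which is drawn from all probe sets tested, p-values rest on how the difference varies between 2 preparations and on no other replication. The script was tested on simulated data.

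The members and the gene lists were chosen with earlier results of these data known. Genes were named by a rule: all member probe sets, the 5 genes most like TRIM6, the up to 4 called genes of each list with the largest change (or the 2 largest where none was called), the 3 nearest tested genes on each side, and ARHGDIB. TRIM7, TRIM25, TRIM27, TRIM38, UBE2K, IKBKE, UBQLNL, HBD, DDX60, HERC6 and the markers were named outside it. TRIM genes were listed by domain order. Lists were described by counts and medians, without a set test. The alternatives were other filters, no block, each array left out, quantile normalization, a floor, averaging the probe sets of each gene, no shared-transcript probe sets (_s_at, _x_at), other moderation and other call rules. Promoter sequences are from RefSeq.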

Additional observations from a re-analysis of the deposited data

How the results depend on the processing

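TRIM6 was higher in the GFP-RhoGDI2 line under all alternatives that gave it a value. That direction was fixed in advance, since TRIM6 was chosen on this contrast and the alternatives reuse the same arrays. Only the size of its difference could vary, and it was 3.52 to 4.22 with 1 array left out and 2.95 with a floor at the filter level. With 1 array left out, TRIM5 differed by -0.05 to 0.06 and TRIM21 by -0.49 to -0.16. TRIM22 had a value only with no filter, and TRIM6 and TRIM21 had none above the upper quartile. All fits with 1 array left out, here and below, had no preparation block and 1 array in a group. Changes in their counts of calls therefore cannot be ascribed to the array alone. The 991 genes called over all became 1876 above the upper quartile, 641 without the replicate block, 2314 with probe sets averaged per gene, 2879 with an intensity trend, 243 at adjusted p under 0.01, 163 at 2-fold in both preparations and 215 to 421 with 1 array left out; the cause was not tested. Higher and lower calls were 585 and 406, but 902 and 974 above the upper quartile, 1198 and 1116 with the probe set mean and 1405 and 1474 with the trend. Between preparations, 0 calls became 190 with the trend.

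Calls among interferon-stimulated genes, 6, were 3 with no filter, 2 without the block, 12 with the probe set mean, 3 without shared-transcript probe sets, 12 with the trend, 0 at 0.01, 0 at 2-fold and 0 to 2 with 1 array left out. The call near TRIM6 was 0 at 2-fold and stayed at 1 with any array left out. In the members' domain order, 1 call became 4 above the upper quartile, 4 with the probe set mean, 5 with the trend, and 0 at 0.01, at 2-fold and with any array left out. In other TRIM domain orders, 4 became 2 with no filter, 2 without the block, 7 with the trend, and 1 at 0.01, at 2-fold and with any array left out. Among partners, 1 became 2 above the upper quartile, 3 with the probe set mean, 7 with the trend, and 0 with no filter, without the block, with quantile or robust settings, without shared-transcript probe sets, at 0.01, at 2-fold and with any array left out. Interferon ligands and receptors, at 0, had 1 above the upper quartile, with the probe set mean and with the trend, and 0 with any array left out.

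The median of that last list, 0.13, was 0.0985 with no filter, 0.147 above the upper quartile, 0.114 with quantile normalization, 0.134 with the probe set mean, 0.0200 without shared-transcript probe sets and 0.0401 to 0.175 with 1 array left out. For interferon-stimulated genes, -0.14 became -0.0971 with no filter, -0.191 without shared-transcript probe sets and -0.162 to -0.117 with 1 array left out. In the members' domain order, -0.19 became -0.144 with no filter, -0.0826 with the probe set mean, -0.0975 without shared-transcript probe sets and -0.178 to -0.119 with 1 array left out. In other TRIM domain orders, -0.03 became -0.13 above the upper quartile, 0.0073 without shared-transcript probe sets and -0.0547 to -0.0136 with 1 array left out. Among partners, -0.05 became 0.0209 without shared-transcript probe sets and -0.0959 to -0.0151 with 1 array left out. Near TRIM6, the median was -0.0456 to 0.0899 with 1 array left out. Signal over background limits TRIM22, the shared TRIM34 probe sets and TRIM6 in GFP cells, all below the filter level.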
